A study of Mus musculus with 7 samples.

Results

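Genes for cytokines, chemokines and their receptors were examined in the livers of old female mice. The members were chosen by symbol: interleukins and their receptors (Il followed by a digit), CC and CXC chemokines and their receptors (Ccl, Cxcl, Ccr and Cxcr), the TNF and TNF receptor superfamilies (Tnfsf and Tnfrsf), Tnf itself, interferon gamma (Ifng) and the interferon receptor subunits Ifngr1, Ifngr2, Ifnar1 and Ifnar2. Of 8251 genes named on the array by a probe set with 1 symbol, 102 met this rule, through 118 probe sets. A gene with several probe sets, which 13 members had, was represented by the probe set of the highest mean. A further 7 probe sets that carry several symbols and 2 control probe sets also hold a matching symbol and were left out. The members comprised 19 interleukins, 3 antagonists or binding proteins, 23 interleukin receptor chains, 1 interferon, 4 interferon receptor chains, 22 chemokines, 13 chemokine receptors, 6 TNF family ligands and 11 TNF family receptors.

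Total liver RNA was hybridised to 7 Affymetrix U74Av2 arrays, replicates 1, 2, 3, 4, 6, 7 and 8 of a single group. By titles and source names the group consists of phenotypically normal mice (+/+ or +/df) with free access to food. Females were 24 to 26 months old. The description field of the same samples calls them Ames dwarf (df/df), which goes against the titles, so the genotype rests on the titles. No array of another genotype or diet was analysed here, so only levels and the spread between arrays could be compared. The labels do not say that each RNA came from its own animal, and the spread may then be technical in part.

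Cytokines are secreted proteins through which immune and tissue cells signal to each other, and most act at short range and at low concentration. Interleukins of the IL-6, IL-4, IL-10 and interferon type bind paired receptor chains that signal through JAK kinases and STAT factors, IL-1, IL-18 and TNF lead to NF-kB, and chemokines guide migrating leukocytes through receptors coupled to G proteins. In the liver, hepatocytes carry the IL-6 receptor that drives the acute phase response, and Kupffer cells, the resident macrophages, and sinusoidal endothelium are sources of many chemokines.

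Promoter sequences are given for Cxcl9 and Ccl22, which had the greatest spread, for Ccl9, Cxcl12 and Il15ra, which had the highest mean signals, for Cxcl1 and Ifnar2, chosen because they hold motif matches, and for Igtp, an interferon-induced GTPase used below as a reference gene. Each is the 250 bases before the most upstream RefSeq start in GRCm38.p6, 5′ to 3′ on the gene's own strand. Capitals mark matches to 4 motifs: the STAT-binding GAS element TTCNNNGAA, the core of the interferon-stimulated response element (ISRE), which is GAAA and GAAA with 2 free bases between them, the NF-kB site, which is GGG and TTTCC with 2 free bases between them, each on either strand, and the TATA box TATAAA on the sense strand. The stretches lie as follows: Cxcl9 at chr5:92328080-92328329 on the minus strand, Ccl22 at chr8:94745434-94745683 on the plus strand, Ccl9 at chr11:83578637-83578886 on the minus strand, Cxcl12 at chr6:117168285-117168534 on the plus strand. The others are Il15ra at chr2:11705043-11705292 on the plus strand, Cxcl1 at chr5:90890995-90891244 on the plus strand, Ifnar2 at chr16:91372533-91372782 on the plus strand and Igtp at chr11:58199306-58199555 on the plus strand.
Cxcl9: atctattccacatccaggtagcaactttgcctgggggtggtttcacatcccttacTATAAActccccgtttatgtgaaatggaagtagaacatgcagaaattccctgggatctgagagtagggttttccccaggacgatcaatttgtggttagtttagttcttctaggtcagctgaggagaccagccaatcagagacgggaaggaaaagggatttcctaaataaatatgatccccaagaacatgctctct
Ccl22: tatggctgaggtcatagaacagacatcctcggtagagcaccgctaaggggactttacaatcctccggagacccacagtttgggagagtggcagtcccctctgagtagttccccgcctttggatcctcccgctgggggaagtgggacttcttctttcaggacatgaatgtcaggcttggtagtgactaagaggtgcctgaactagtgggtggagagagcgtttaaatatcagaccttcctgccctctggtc
Ccl9: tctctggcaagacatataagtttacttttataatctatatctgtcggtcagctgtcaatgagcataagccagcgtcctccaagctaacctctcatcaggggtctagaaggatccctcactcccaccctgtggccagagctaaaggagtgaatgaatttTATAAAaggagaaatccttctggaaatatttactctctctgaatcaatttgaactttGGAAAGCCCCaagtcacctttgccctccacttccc
Cxcl12: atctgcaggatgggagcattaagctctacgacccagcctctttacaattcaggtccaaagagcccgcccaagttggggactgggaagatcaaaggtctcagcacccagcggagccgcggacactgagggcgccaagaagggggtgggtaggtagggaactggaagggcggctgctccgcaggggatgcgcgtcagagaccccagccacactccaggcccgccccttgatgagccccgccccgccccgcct
Il15ra: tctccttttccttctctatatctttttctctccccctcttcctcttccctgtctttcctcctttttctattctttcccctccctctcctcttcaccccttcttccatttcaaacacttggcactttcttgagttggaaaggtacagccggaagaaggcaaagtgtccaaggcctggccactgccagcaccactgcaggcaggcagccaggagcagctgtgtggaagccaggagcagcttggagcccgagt
Cxcl1: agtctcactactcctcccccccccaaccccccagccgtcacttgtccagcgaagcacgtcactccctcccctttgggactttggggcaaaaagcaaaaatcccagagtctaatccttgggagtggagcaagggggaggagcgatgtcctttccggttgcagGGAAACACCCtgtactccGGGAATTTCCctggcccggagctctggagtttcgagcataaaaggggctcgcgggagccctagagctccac
Ifnar2: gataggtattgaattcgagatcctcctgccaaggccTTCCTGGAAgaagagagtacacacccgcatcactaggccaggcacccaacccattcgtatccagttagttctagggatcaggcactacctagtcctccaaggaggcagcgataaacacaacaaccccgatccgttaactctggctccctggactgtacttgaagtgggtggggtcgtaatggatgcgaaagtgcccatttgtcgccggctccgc
Igtp: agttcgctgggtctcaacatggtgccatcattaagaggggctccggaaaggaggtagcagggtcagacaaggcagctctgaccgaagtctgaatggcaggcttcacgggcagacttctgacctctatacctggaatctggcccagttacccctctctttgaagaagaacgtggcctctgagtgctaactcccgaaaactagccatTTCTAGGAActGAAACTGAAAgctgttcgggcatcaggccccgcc

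Igtp held a GAS match beginning at base -45 and an ISRE core beginning at base -34, counted from the start site. The Cxcl9 stretch held neither, and its only match among the 4 motifs was a TATA box at -195. Ccl9 held an NF-kB site at -35 with a TATA box at -92, Cxcl1 held NF-kB sites at -89 and -71, and Ifnar2 held a GAS match at -214. Ccl22, Cxcl12 and Il15ra held 0 matches. A match is a stretch of letters and was not tested as a binding site.

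Most of these genes gave little signal in liver. A mean of at least 200 scaled intensity units was reached by 22 of 102 members (21.6%), against 54.3% of all named genes, and the median of the means was 47.6 for members and 242.9 for named genes. On every array 28 members (27.5%) lay below 50, the value used here as a floor, against 1030 named genes (12.5%). The share of at least 200 was 14 of 51 receptors (27.5%) and 7 of 48 ligands (14.6%). By role it was 9 of 23 interleukin receptor chains, 3 of 4 interferon receptor chains, 6 of 22 chemokines, 2 of 11 TNF family receptors, 1 of 19 interleukins, 1 of 3 antagonists or binding proteins, 0 of 13 chemokine receptors and 0 of 6 TNF family ligands. Signals of different probe sets depend on their probes and do not rank transcript amounts, and a low signal does not show absence of the transcript. In whole liver, fewer cells of a type and less RNA per cell cannot be told apart.

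**Figure D1:**
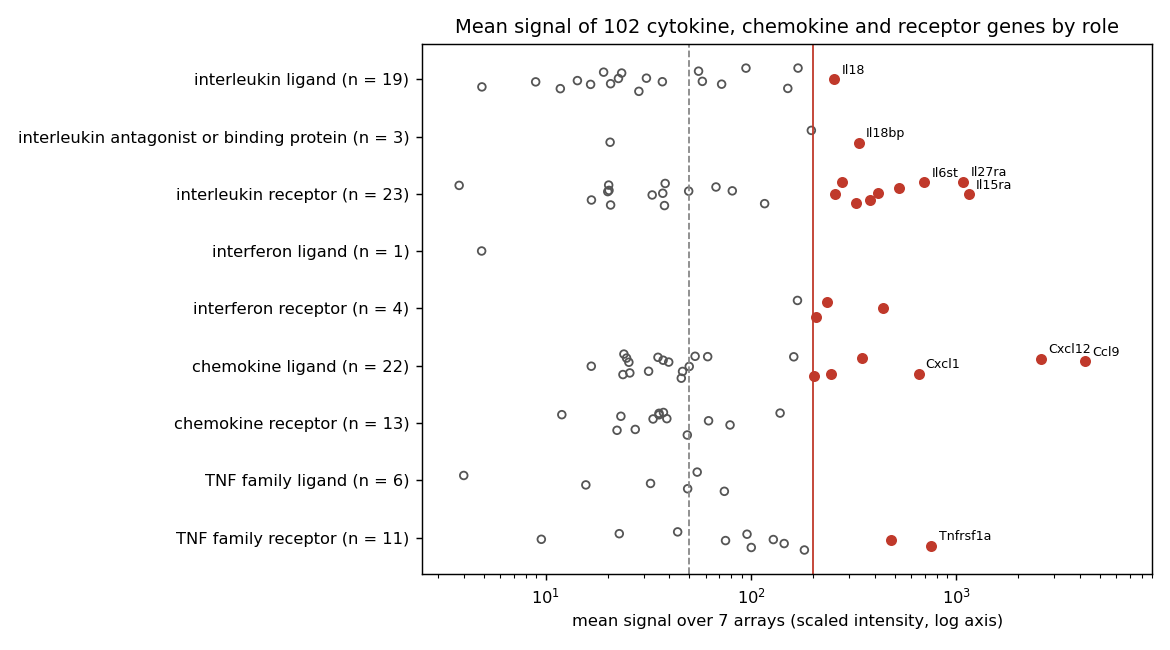
Mean signal over 7 arrays (scaled intensity, log axis) of each of the 102 genes, 1 point per gene, by role; the solid line is at 200 and the dashed line at 50. Of the 22 genes to the right of 200, 12 are interleukin or interferon receptor chains, and no chemokine receptor or TNF family ligand reaches it.

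The 7 arrays had been brought to the same scale before deposit (trimmed means of 500.36 to 500.39), and pairs of arrays correlated at r = 0.961 to 0.975 over genes, which are not independent replicates. Albumin, the main secreted product of hepatocytes, was at 31853 ± 3080 (SD, n = 7), and Igf1, a growth hormone target in liver, was at 8919 ± 542, from 8348 to 9553. The spike-in controls split the arrays into replicates 1 to 4 (mean log2 10.64 to 10.97) and replicates 6 to 8 (10.20 to 10.24). Markers of macrophages and Kupffer cells were present on all arrays (7 of 9 at 200 or more, summed signal 5431 to 7232), while 1 of the 7 T and NK cell markers on the array reached 200 (Cd4) and Cd3d, Cd3g, Cd8a and Gzma were below 50 on every array (summed signal 338.5 to 527). Skeletal muscle markers summed to 8119.6 on replicate 1 and 3548 on replicate 2, against 439 to 623 on the others. Most of this was Acta1 (5991 on replicate 1). Atp2a1 (1136 and 803, against 122 to 214 elsewhere) and Myl1 (848 and 542, against 87.0 to 132) were also high on replicates 1 and 2. Ckm, of the same list, was lowest on replicate 1 (143.8) and highest on replicate 8 (209.5).

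Ccl9, a CC chemokine that binds Ccr1 and attracts dendritic cells and osteoclast precursors, had a signal of 3562 on the lowest array, 4365 at the median and 4723 on the highest (4248 ± 425, SD, n = 7). Replicate 8 was lowest and replicate 1 highest, a 1.33-fold range. Cxcl12, the homeostatic chemokine that retains progenitors and lymphocytes through Cxcr4, ran from 2397 through a median of 2544 to 2923 (2569.5 ± 172). Its 6 other arrays lay between 2397 and 2595, and replicate 8 stood above them. The other Cxcl12 probe sets were highest on replicate 2 (1642) and on replicate 6 (637.2). Cxcl1, which recruits neutrophils through Cxcr2, ran from 562 (replicate 8) through 636 to 759 (replicate 7), a 1.35-fold range around 653 ± 77.3. By the probe sets used, all 3 chemokines were far above 200 on every array. The other Cxcl1 probe set had a mean of 330 and a lowest value of 228.6 (replicate 2).

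Cxcl9, a chemokine induced by interferon gamma that draws T cells through Cxcr3, read 403 on replicate 1, 294 on replicate 2, 159 on replicate 3, 212 on replicate 4, 334 on replicate 6, 187 on replicate 7 and 848 on replicate 8. Replicate 8 was above every other array, and the 5.34-fold range was the widest of the 22 members. Ccl22, made by dendritic cells and macrophages and read by Ccr4 on regulatory T cells, was at 340.0, 293, 183, 82.9, 274, 325 and 225 on replicates 1, 2, 3, 4, 6, 7 and 8. Here replicate 4 was the low array, below every other, and the range was 4.10-fold. Ccl1, a ligand of Ccr8, lay at the edge of the threshold with 165 to 244 around a median of 189.5, and its other probe set had a mean of 41.3, so the 2 probe sets disagree on whether the gene is measured.

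Among chemokines under 200, Ccl6 had the highest mean (161 ± 29.8) and reached 200 on 1 array. Cxcl10, like Cxcl9 an interferon-induced ligand of Cxcr3, had a mean of 53.4 and was below 50 on 4 arrays. Ccl5, a T cell product that recruits leukocytes, had a mean of 39.7, and Ccl2, the ligand of the monocyte receptor Ccr2, a mean of 45.7. Ccl8, Cxcl2, Ccl4, Ccl7 and Ccl17 were below 50 on every array. Among the chemokine receptors Cxcr3 had the highest mean (138 ± 26.0, range 95.7 to 163), Ccr2 a mean of 62.0, and Ccr6, Ccr7, Ccr8 and Cxcr4 were below 50 on every array.

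The IL-6 receptor was measured in both chains. Il6ra, the chain that binds IL-6, ran from 397 (replicate 6) through 478 to 778 (replicate 3), with 525 ± 140 and a 1.96-fold range. Il6st (gp130), the shared signalling chain of the IL-6 family, ran from 555 (replicate 1) through 668 to 928 (replicate 2), with 699 ± 121. The other Il6st probe set had a mean of 245, and its highest array was replicate 7 (355). The high and low arrays of Il6ra and Il6st were different ones. Il6 itself had a mean of 19.1 and was below 50 on all 7 arrays.

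Il15ra, which holds IL-15 and presents it to neighbouring lymphocytes, ran from 944 (replicate 8) through 1104 to 1417 (replicate 1), and replicates 1 and 3 (1395) were set apart from the other 5, which ended at 1142. Il27ra, a receptor chain of the gp130 type for IL-27, ran from 821 (replicate 1) through 1150.0 to 1306 (replicate 6), with replicates 1 and 2 the lowest pair. Il17ra, the receptor of IL-17, ran from 279 (replicate 7) through 410.0 to 445 (replicate 1), and 5 of its 7 values lay between 382 and 445. All 3 were above 200 on every array.

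Il10rb, a chain shared by the receptors of IL-10, IL-22 and interferon lambda, read 199 on replicate 1 and 465, 412.5, 374, 445, 505 and 493 on replicates 2, 3, 4, 6, 7 and 8. Replicate 1 was well below the 6 others, which overlapped closely, and the range was 2.53-fold. Il10ra, the partner chain specific to IL-10, had a mean of 20.3 and was below 50 on every array, and Il10 had a mean of 28.4 with 6 arrays below 50.

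Il4ra, the chain common to IL-4 and IL-13 signalling, ran from 245.5 (replicate 8) through 329.5 to 381 (replicate 7). Its other probe set had a mean of 60.96, so its place above 200 rests on 1 of its 2 probe sets. Il13ra1, which joins it in non-lymphoid cells, was among the steadiest members, from 236.5 (replicate 3) through 251.1 to 292.5 (replicate 6), a 1.24-fold range. Il1r1, the signalling receptor of IL-1, ran from 181 (replicate 4) through 313 to 391 (replicate 6), with replicates 2 and 4 both under 183. Its accessory chain Il1rap had a mean of 20.7 and was below 50 on every array.

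Il18, the only interleukin at 200 or more and a cytokine that induces interferon gamma, ran from 176 (replicate 8) through 253 to 312 (replicate 4). Il18bp, the secreted protein that neutralises IL-18, ran from 245.6 (replicate 4) through 336.5 to 464 (replicate 8). The array highest in one was the lowest in the other at both ends. Il18 was, however, nearly as high on replicate 1 (311.4), which was the second highest array of Il18bp (363.7). Il1rn, the antagonist of IL-1, fell just short of the threshold at 196 ± 42.0 (118 to 236), with 4 arrays at 200 or more. Il1a had 169 ± 31.6 and 1 such array, and Il16, a chemoattractant for CD4+ cells, 151 ± 24.98 and 0. Il2, Il6, Il1b, Il13 and Il17a were below 50 on all 7 arrays, with means of 4.89, 19.1, 20.7, 22.6 and 16.5, and Il4 had a mean of 55.5.

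By the probe sets used, both TNF receptors were above 200 on every array, while the other Tnfrsf1a probe set had a mean of 199.3. Tnfrsf1a, the widely expressed death domain receptor, ran from 614 (replicate 4) through 768 to 872 (replicate 3), and Tnfrsf1b, the form prominent on leukocytes and endothelium, from 393 (replicate 4) through 464 to 577 (replicate 6). Replicate 4 was the lowest array for both, but the other Tnfrsf1a probe set had its highest value there (255.4). Tnf had a mean of 49.1 ± 32.4, with 5 arrays below 50 and a highest value of 114 on replicate 3. Tnfrsf11a (RANK) reached 200 on 2 arrays with 182 ± 23.0, and its soluble decoy counterpart Tnfrsf11b (osteoprotegerin) had a mean of 145. Tnfrsf21 had a mean of 128 and Tnfrsf17, a receptor of plasma cells, 100.2.

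By the probe sets used, both chains of the type I interferon receptor were above the threshold on average, while the other Ifnar2 probe set had a mean of 139.2. Ifnar2 ran from 378 (replicate 7) through 448 to 490.1 (replicate 1), and Ifnar1 from 166 (replicate 2) through 250.6 to 270.0 (replicate 7), with 6 arrays at 200 or more. Ifngr1, the ligand-binding chain for interferon gamma, lay at the threshold, from 153 (replicate 3) through 210.5 to 249.4 (replicate 6). Its partner Ifngr2 had a mean of 168 ± 68.2 and ran from 47.4 on replicate 7 to 272 on replicate 3. Ifng had a mean of 4.87 and was below 50 on every array.

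**Figure D2:**
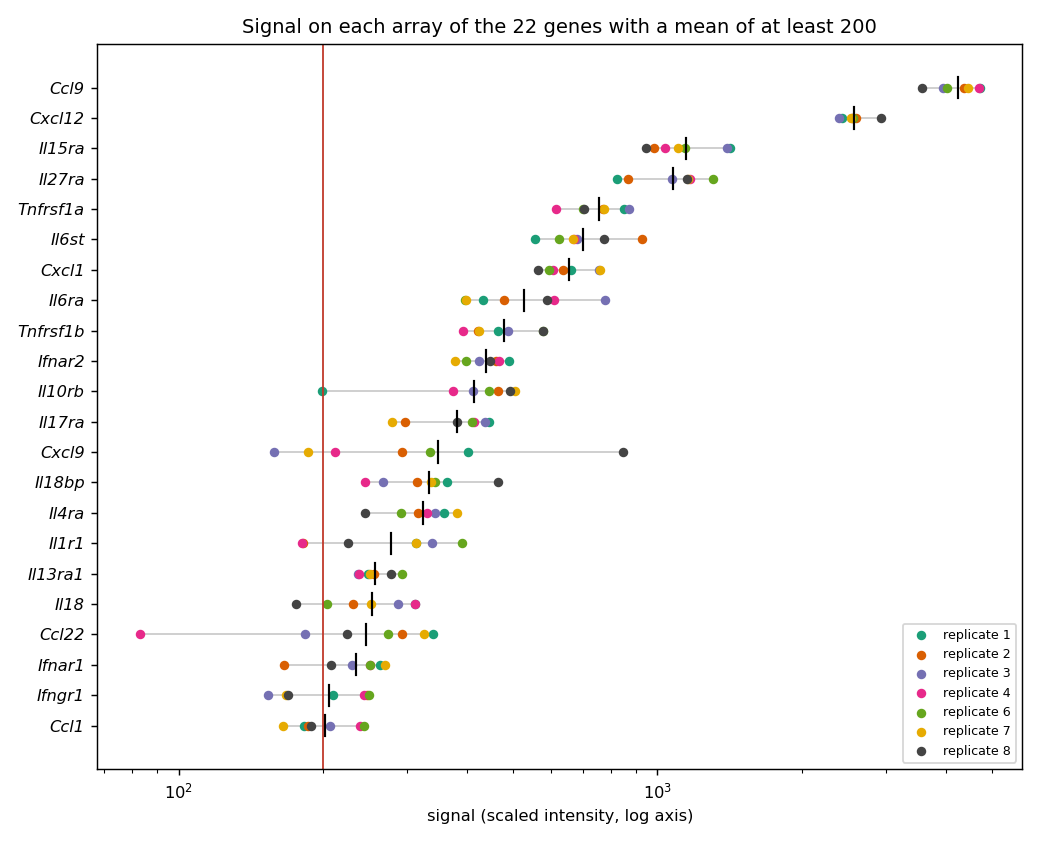
Signal (scaled intensity, log axis) of the 22 genes with a mean of at least 200 on each of the 7 arrays; points are arrays coloured by replicate, black ticks are means and the vertical line is at 200. Replicate 8 stands above the others in Cxcl9 (848), replicate 4 below in Ccl22 (82.9) and replicate 1 below in Il10rb (199).

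At the threshold of 200, Ccl22 (246), Ifnar1 (234), Ifngr1 (206) and Ccl1 (202) lay just inside, and Il1rn (196), Tnfrsf11a (182), Il1a (169), Ifngr2 (168), Ccl6 (161) and Il16 (151) just outside. Arrays at 200 or more numbered 5, 6, 4 and 3 for the genes inside, in that order, and 4, 2, 1, 2, 1 and 0 for those outside, so the spread between arrays spans the threshold for 9 of these 10 genes.

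Known ligands and receptors among the members were then set side by side at this threshold. A list of known partners, limited to genes of the symbol rule, gave 44 ligand and receptor pairs, made of 38 ligands and 37 receptors. Il1rn with Il1r1 and Il18 with Il18bp, which hold an antagonist and a binding protein, were left out. In 0 of the 44 pairs did both partners reach 200. Of the 7 ligands at 200 or more 6 were chemokines, and 0 of 13 chemokine receptors reached 200, so this largely restates the counts by role. In 7 pairs the ligand alone did: Il18 with Il18r1, Cxcl12 with Cxcr4, Cxcl9 with Cxcr3, Cxcl1 with Cxcr2, Ccl9 with Ccr1, Ccl22 with Ccr4 and Ccl1 with Ccr8. In 10 pairs the receptor alone did, among them Il6 with Il6ra, Il15 with Il15ra, Il17a with Il17ra, Ifng with Ifngr1 and Tnf with both of its receptors, and in 27 neither did. At a threshold of 100, 2 pairs had both partners, Il1a with Il1r1 and Cxcl9 with Cxcr3. Of 10 pairs of receptor subunits in the list, 3 had both chains at 200 or more (Il6ra with Il6st, Ifnar1 with Ifnar2, Il4ra with Il13ra1). In 4 pairs 1 chain did, and in 3 neither did. Il27ra (1078) and Il6st (699), the gp130 chain, were not paired in the list, and both reached 200. Outside the rule, pairs with both partners at 200 or more did occur: Csf1 (386) with Csf1r (867), Csf3 (353) with Csf3r (981) and lymphotoxin Lta (579) with Tnfrsf1a (754), named after their values were seen.

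Several members are neighbours in RefSeq's order of protein-coding genes, and the threshold of 200 separated several of them. Ifnar2, Il10rb, Ifnar1 and Ifngr2 follow each other, with means of 438, 413, 234 and 168. In the CC chemokine cluster Ccl9 (4248) stands between Ccl5 (39.7) and Ccl6 (161), followed by Ccl3 (49.96) and Ccl4 (24.0). Cxcl1 (653) is next to Cxcl2 (25.7), another neutrophil chemokine, and Il15ra (1146) next to Il2ra (16.7). The contrasts around Ccl9, Cxcl1 and Il15ra were the widest among neighbouring members. Other neighbours lay on the same side of 200, such as Ccl2 (45.7), Ccl7 (23.8), Ccl11 (35.2), Ccl12 (24.7) and Ccl8 (31.7), which follow each other. How often the threshold would separate neighbours by chance was not tested.

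The spread between arrays was tested gene by gene. An intercept-only limma fit over all 4483 genes with a mean of at least 200 asked whether a gene's variance on the log2 scale exceeded that of genes at its level. No gene passed an adjusted p of 0.05 (0% of genes tested; 0 of 22 members); at an unadjusted p under 0.05 there were 299 genes (6.67%) and 3 of 22 members (13.6%). These 3 were Cxcl9, Ccl22 and Il10rb. Cxcl9 had a log2 SD of 0.82, 3.57 times that expected at its level (adjusted p = 0.357 by limma with Benjamini-Hochberg). Ccl22 had 0.71, 2.59 times the expected (adjusted p = 0.531 by limma), and Il10rb 0.46, 2.31 times (adjusted p = 0.637 by limma). None of the 3 passed the adjusted test. Nor did Acta1, a muscle gene outside the members that ran from 10.5 to 5991 (log2 SD 2.87). The smallest adjusted p of any gene was 0.0965 by limma. With 7 arrays the test did not call even a spread that wide, so its outcome for the 3 does not show that their spread was ordinary.

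Each of these spreads rested in large part on 1 array. Without replicate 8 the log2 SD of Cxcl9 was 0.52, without replicate 4 that of Ccl22 was 0.34, and without replicate 1 that of Il10rb was 0.16. Replicate 1 also held the highest muscle marker sum, and the part of this in Il10rb was not tested. Il6ra (log2 SD 0.37) and Il1r1 (0.45) came next in the order of p. At the steady end, Il13ra1 had 0.45 times the expected SD, Cxcl12 0.61 times, Ifnar2 0.68 times and Ccl1 0.70 times. The median log2 SD was 0.24 over the 22 members and 0.18 over all genes tested, and 15 of 22 members lay above the SD expected at their level, against 49.1% of all genes tested.

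**Figure D3:**
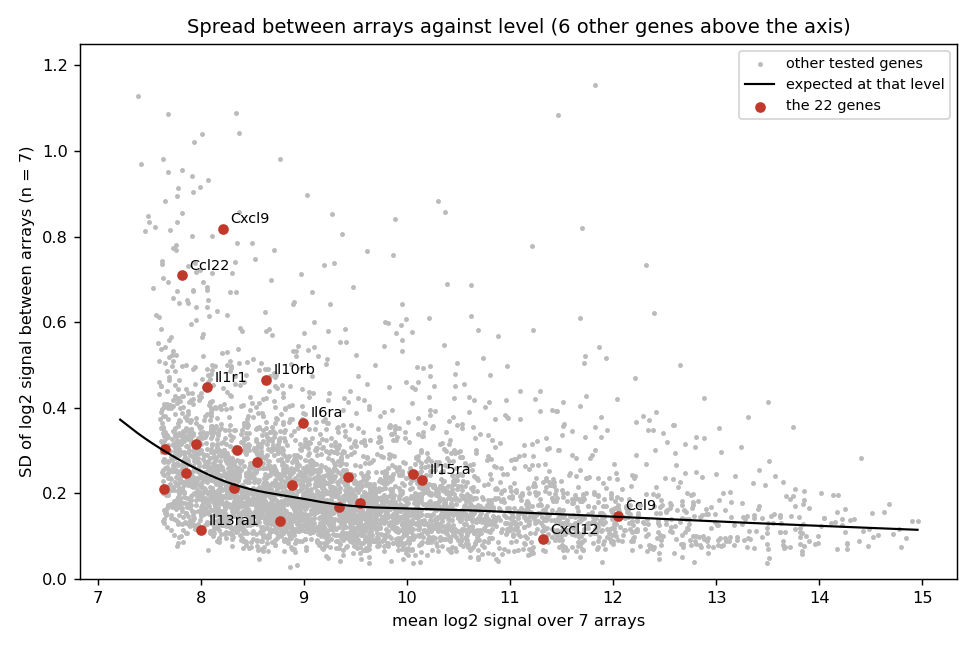
SD of log2 signal between the 7 arrays against mean log2 signal, for the 22 genes (red) and the other genes tested (grey); the black line is the SD expected at each level. Cxcl9, Ccl22 and Il10rb lie above the line by the widest ratios among the 22 (3.57, 2.59 and 2.31 times) and Il13ra1 and Cxcl12 below it.

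The arrays split by the spike-in controls were compared for the same genes. In 0 of 22 members were replicates 1 to 4 and replicates 6 to 8 without overlap, against 328 of 4483 genes tested (7.32%). Il18 had means of 286 and 211 in these sets and Il27ra 982 and 1205. With the set as a term in the limma fit, the log2 SD was 0.83 for Cxcl9, 0.73 for Ccl22 and 0.43 for Il10rb.

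The arrays that were high in Cxcl9 were then set beside interferon-induced genes whose pattern was known from earlier results of these data. Igtp, an immunity-related GTPase induced by interferon gamma, had its top values on replicates 1 (2826) and 8 (3095), with 719 to 1361 elsewhere, and so did Irgm2, of the same family, at 2561 and 2524 against 690.2 to 1290. Cxcl9 had its highest values on the same replicates (403 and 848), but replicate 6 (334) was close to replicate 1. Il18bp, which interferon gamma also induces, was highest on them too (364 and 464), again close to replicate 6 (343). Among all tested members, these 2 of 22 (9.09%) had replicates 1 and 8 as their top arrays, against 193 of 4483 genes tested (4.31%), a criterion chosen after the values were seen. Below 200, Cxcl10 read 82.8 and 66.6 there, against 33.9 to 60.3 elsewhere, and Ccl5 91.4 and 66.9 against 18.4 to 36.8. Both lay near the floor, with Cxcl10 below 50 on 4 arrays and Ccl5 on 5. The chemokine receptor Cxcr5 (43.9 and 94.2 against 14.9 to 26.7) and Il5ra, below 50 on every array, had the same top arrays. That makes 6 of 102 members (5.88%) against 3.65% of named genes. The other members did not share this order. Il15ra, for example, was highest on replicate 1 (1417) but lowest on replicate 8 (944). Tnfsf10 read 59.6 on replicate 1 and 28.5 on replicate 8, against 25.7 to 82.0 elsewhere. Summed T and NK cell markers on replicates 1 and 8 were 428 and 373, inside the range of the other arrays (338.5 to 527). Most of each sum was Cd4 (278.6 and 202.6), and the other markers lay near or below 50. The sum therefore cannot show whether T cells differed on these arrays.

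Ccl22, low on replicate 4, was set beside H2-Ab1 and Cd74, the MHC class II beta chain and the invariant chain of antigen-presenting cells. Replicate 4 gave H2-Ab1 a signal of 158, against 382 to 1113 elsewhere, and Cd74 1815 against 2520 to 4619. Replicate 3 was the next lowest in all 3 genes, while the highest array differed: replicate 1 for Ccl22 and replicate 8 for H2-Ab1 and Cd74. Summed macrophage and Kupffer cell markers on replicate 4 (5695) lay inside the range of the others, and summed B cell markers did as well (1528 against 1242 to 1593). Single markers of these lists went either way there. C1qa, a complement gene of macrophages, was lowest at 1223.2, level with 1223.5 on replicate 3. The B cell receptor gene Cd79b was lowest at 42.1, under the floor, against 46.5 to 132.7. By contrast, the macrophage marker Cd14 was highest on replicate 4 (488.9). Lyz2 (495.2), Ms4a1 (475.4) and Ighm (657.3) had their second highest value there. The part of these markers in the Ccl22 values was not tested. No adjusted limma p of these reference genes passed 0.05 (Igtp 0.267, Irgm2 0.342, H2-Ab1 0.267, Cd74 0.384).

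**Figure D4:**
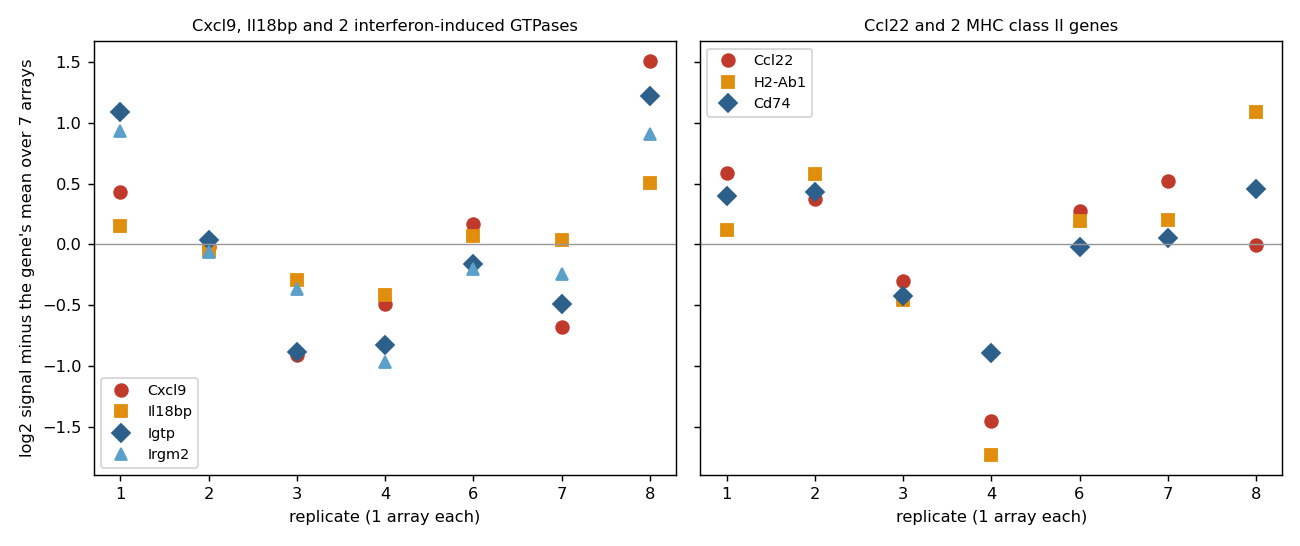
Log2 signal minus the gene's mean over the 7 arrays, by replicate. Left, Cxcl9, Il18bp, Igtp and Irgm2 share their 2 highest arrays, replicates 1 and 8; right, Ccl22, H2-Ab1 and Cd74 share their lowest array, replicate 4.

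Whether partners vary together between arrays was tested for 5 listed pairs with both genes at 200 or more. The test was an exact two-sided permutation over all pairings of the arrays. Il27ra with Il6st was not in the list and was not tested. None of the 5 listed pairs passed after Benjamini-Hochberg adjustment over them. For Il18 and Il18bp the correlation was negative and missed the threshold (Pearson r = -0.719, exact p = 0.066, adjusted 0.206; Spearman rho = -0.607, exact p = 0.167, adjusted 0.333). Leaving out the 2 arrays farthest from the median of Il18, replicates 6 and 8, gave r = -0.286, so the value rests on them. Without replicate 1, by contrast, r was -0.946 (exact permutation p = 0.00417, adjusted 0.0208), while rho at -0.943 stayed at an adjusted 0.0833. That adjustment covers the 5 pairs and not the choice of which of the 7 arrays to leave out, so it does not replace the result over all arrays. Over all arrays, both genes also differed between the sets split by the spike-in controls, in opposite directions. Il18 had a mean of 286 in the set of higher spike-in signal and 211 in the other, and Il18bp 298 and 381. The part of these sets in the correlation without replicate 1 was not tested. Il4ra and Il13ra1 gave r = -0.696 (exact permutation p = 0.082, adjusted 0.206) and rho = -0.643 (exact p = 0.139), and without replicates 7 and 8 r = -0.809. Il6ra with Il6st (r = 0.222), Ifnar1 with Ifnar2 (r = -0.312) and Tnfrsf1a with Tnfrsf1b (r = 0.0525) had exact permutation p-values of 0.637, 0.513 and 0.914.

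Separate probe sets of a member were compared for the same purpose, since they read the same gene. Over the 6 pairs of probe sets with means of at least 200, from Cxcl1, Cxcl12, Il17ra and Il6st, r ranged from -0.244 to 0.524 and every adjusted exact permutation p was 0.594. For Cxcl12 the 3 probe sets had log2 SDs of 0.09, 0.27 and 0.11. A shared order of arrays between probe sets of these genes was not detectable with 7 arrays.

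The signalling partners of these receptors were measured through lists chosen by function. Of 21 JAK-STAT genes on the array, 11 reached 200, among them Stat3 (1158 ± 183), Jak1 (1026 ± 49.6), Stat5a (936 ± 132) and Irf1 (816 ± 197). In this list 1 gene had an unadjusted p under 0.05, Socs2, a feedback inhibitor of growth hormone signalling, which ran from 234 to 1321 (log2 SD 0.73, adjusted p = 0.342 by limma). Of 28 genes of the NF-kB, TNF and IL-1 pathways, 21 reached 200, among them Rela (2586 ± 251), the TNF receptor adaptor Tradd (1236 ± 362), the inhibitor Nfkbia (936 ± 91.3) and Traf4 (801 ± 102). Unadjusted p-values under 0.05 were found for Bcl3 (72.6 to 649.7, log2 SD 1.09), Tradd and Traf5. Of 14 G protein partners of chemokine receptors, 8 reached 200, among them Gnai2 (4633 ± 278), Gnai3 (2494 ± 347), Gnb2 (1748 ± 173) and Rgs16 (1437 ± 367). In that list Grk6 (log2 SD 0.64) and Rgs16 (0.38) had an unadjusted p under 0.05, and 0 genes of any list passed the adjusted threshold.

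Cytokines and receptors of the same families with other names gave 11 of 39 genes at 200 or more. Lifr, the receptor of leukaemia inhibitory factor that pairs with Il6st, was at 4492 ± 510.3, the growth hormone receptor Ghr at 4252 ± 503, the lymphotoxin receptor Ltbr at 2344 ± 324 and the granulocyte colony-stimulating factor receptor Csf3r at 981 ± 120.1. Among those 11 the largest log2 SDs were those of Csf3 (0.36) and Csf1r (0.33), and 0 of the 11 had an unadjusted p under 0.05. The median log2 SD was 0.21 in this list, 0.24 among JAK-STAT genes, 0.19 among NF-kB pathway genes and 0.17 among G protein partners, against 0.18 over all genes tested.

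Promoters were then compared in base composition over 300 bases, from 250 before to 50 after the start. RefSeq windows were found for 82 of 102 members, 19 of them among the 22 at 200 or more. A CpG content of at least 0.6 of that expected from base composition was present in 19 of 82 members (23.2%), in 8 of 19 members at 200 or more (42.1%) and in 11 of 63 under 200 (17.5%). Among all named genes the shares were 72.4% at 200 or more and 53.5% under 200. By role, 4 of 4 interferon receptor chains and 7 of 17 interleukin receptor chains were CpG-rich by this measure, against 3 of 16 chemokines, 1 of 11 chemokine receptors, 1 of 16 interleukins and 0 of 4 TNF family ligands. Of the promoters printed above, Ifnar2 was at 0.752, Cxcl1 at 0.397, Cxcl9 at 0.271 and Ccl9 at 0.144.

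**Figure D5:**
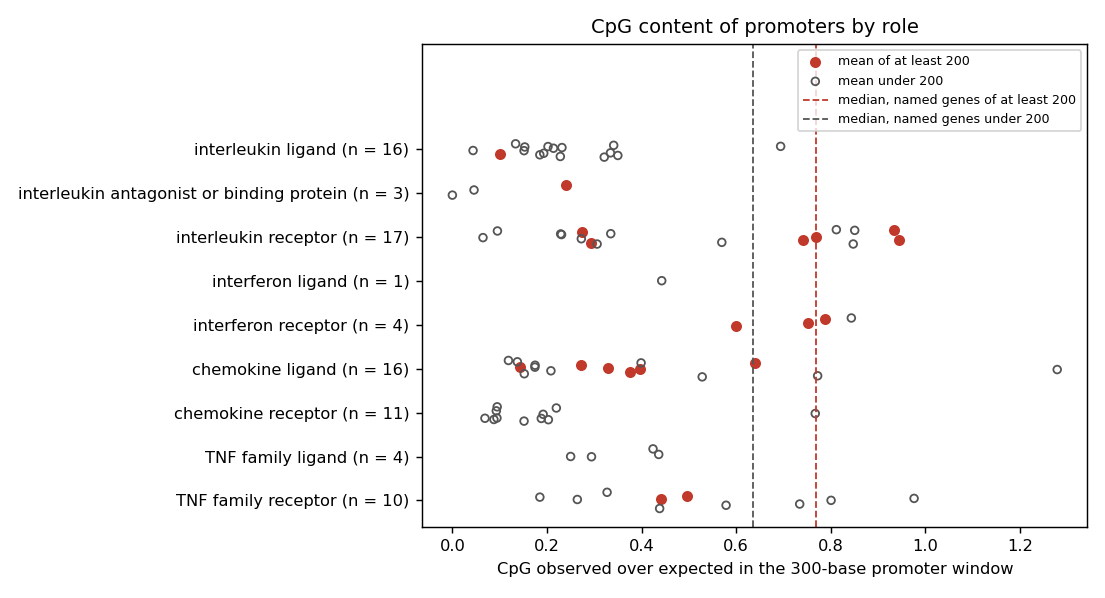
CpG observed over expected in the 300-base promoter window of 82 members by role; filled points are genes with a mean of at least 200, open points genes under 200, and dashed lines the medians of all named genes at or above 200 (0.769) and under 200 (0.636). Interferon receptor chains lie at 0.6 or above, while most chemokines, chemokine receptors and interleukins lie under 0.6.

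The GAS motif was held by 15 of 82 member windows (18.3%) against 8.42% of all 27025 RefSeq promoters, the ISRE core by 6 (7.32%) against 3.49%, the NF-kB site by 8 (9.76%) against 1.63% and the TATA box by 15 (18.3%) against 8.88%. Among members at 200 or more, GAS matches were in Tnfrsf1a, Tnfrsf1b, Ifnar1 and Ifnar2, and NF-kB matches in Ccl9, Cxcl1 and Il4ra. These shares are descriptions of the letters in the windows and were not tested.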

How the data were processed

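Linear signal intensities of 7 arrays were used as the authors deposited them; that the arrays share 1 scale was checked on the values. Image software, summary method and scaling target were not given in the sources used here. An HP GeneArray scanner had been used, per the labels' protocols. Probe sets were named from the platform annotation: 10833 carried 1 symbol, 396 several and 1193 none, apart from 66 controls. All 102 members matched a RefSeq gene ID and 0 symbols changed. Values under 50 were set to 50, log2 taken, and genes with a mean of at least 200 tested. Spread was tested with limma 3.58.1 (R 4.3.3) by an intercept-only fit with a robust prior that follows the level and an upper-tail F test, with Benjamini-Hochberg adjustment over 4483 genes, and checked on simulated data. Correlations used exact permutation tests (scipy 1.17.1, Python 3.11.15). Replicate numbers come from the titles. The p-values measure the spread between these arrays, whose number limits the precision.

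The members, gene lists, markers and tests were chosen with earlier results of these data known. Named were all members with a mean of at least 200, those under 200 with an array at 200 or more, the 10 of highest mean under 200, a preset group of central cytokines and chemokines and, of each other list, up to 4 genes of highest mean and 2 of largest SD; other genes named were chosen after their values were seen. Alternatives varied the floor, offset, threshold, prior, normalization, spike-in set and arrays included.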

Additional observations from a re-analysis of the deposited data

Results flagged for a closer look

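Among the 33 members with a mean of at least 100, 4 had 1 array whose gap to its nearest neighbour was large against the range of all 7 (a ratio above Dixon's 95% critical value, on the log2 scale). That is 12.1% of them, against 6.85% (386 of 5636) of all named genes at that level, and chance alone gives such a gap in about 1 in 20 genes. Il10rb had the largest ratio (0.679), with replicate 1 lowest at 199.2 and the nearest array at 374.3. Ifngr2 followed (0.636), with replicate 7 at 47.4 and the nearest at 146.9; it is under the threshold of 200 and was not tested for spread. In Cxcl12 (0.6) replicate 8 was highest at 2923.3 against 2594.9, although the gene was among the steadiest of the 22. This flag holds for 1 of its 3 probe sets, since the others were highest on replicate 2 (1642) and on replicate 6 (637.2). In Il2rb (0.592), a receptor chain for IL-2 and IL-15, replicate 6 was highest at 189.0 against 119.6. The 4 flags fell on 4 different arrays, and their causes were not tested.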

How the results depend on the processing

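The count of genes passing the adjusted limma test was 0, 1 with an offset of 50 in place of the floor, and 0 to 1 leaving out 1 array; the 1 gene was Acta1, a muscle gene and no member, without replicates 3, 4, 6 or 7. The adjusted p ranged over the settings from 0.222 to 0.827 for Cxcl9 and from 0.222 to 0.993 for Ccl22 and Il10rb. Members with an unadjusted p under 0.05 numbered 3, 2 to 4 without 1 array, 4 without a prior that follows the level, 1 of 11 with a filter of 400, and 1 of 102 without a filter. Members counted as measured numbered 22, 14 when every array had to reach 200, 11 at a threshold of 400, 33 at a threshold of 100, 20 with the mean of all probe sets (without Il4ra, 192, and Ccl1, 122) and 20 to 22 without 1 array. The median log2 SD of members stayed between 0.21 and 0.26. Among pairs of partners, 0 to 1 passed without 1 array (Il18 with Il18bp, without replicate 1), and agreement of probe sets passed in 0 under each setting. Of 154 SDs of single genes with 1 array left out, 7 moved by over 1.5 times: Cxcl9 to 0.52, Ccl22 to 0.34, Il10rb to 0.16, Il6st to 0.16 (without replicate 2), Il4ra to 0.14 (without replicate 8), Ifnar1 to 0.14 (without replicate 2) and Cxcl12 to 0.05 (without replicate 8). Of 152 SDs under other floors, offsets, normalizations, probe set means or the array set as a term, 0 did. No paired analysis was possible because the labels give only 1 group.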
